A study of Mus musculus with 5 samples.

Results

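miR-21a is the mouse form of miR-21, and its hairpin yields a strand from each arm, miR-21a-5p and miR-21a-3p. The members were taken by name, as the rows mmu-miR-21a-5p and mmu-miR-21a-3p, and are 2 of the 1966 mature miRNAs in the count table. The samples were small RNA libraries of extracellular vesicles (EVs), membrane vesicles that cells release, from cultured mesenchymal stem cells (MSCs) of C57BL/6-GFP transgenic mice. The first group held 3 libraries of freeze-dried EVs, which had been diluted in buffer with 25 mM trehalose, frozen at -80 °C, dried overnight and rehydrated for 1 h, and the second held 2 libraries of EVs without freeze-drying, called not freeze-dried here. In both groups the cells had spent 48 h in reduced-serum medium and the small EVs had been pelleted at 100000 g for 110 min. Trehalose at 25 mM is also among the resuspension buffers listed for all EVs, so it is not a stated difference between the groups. The labels do not say which storage temperature or buffer each sample had before RNA extraction, and give no culture or animal for a replicate. The p-values therefore measure the spread between these 5 libraries, which may be technical.

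A miRNA is a short RNA that sits in an Argonaute protein and guides it to messenger RNAs that pair with its seed, bases 2 to 8, which are then repressed. Of the duplex cut from a hairpin one strand is usually kept as the guide, and the other, the passenger strand, is mostly degraded. miR-21-5p is the guide of its hairpin. It is abundant in fibroblasts and other mesenchymal cells, is induced by TGF-beta, STAT3 and AP-1 signals, and represses Pdcd4, Spry1 and Reck, among others. It is widely studied in fibrosis and tumours and as a miRNA that MSC vesicles deliver to other cells. miR-21-3p is the passenger strand.

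Both strands are shown because they come from the same hairpin but have unrelated seeds, and the 2 other miR-21 rows of the table because their reads could be taken for miR-21a-5p. Sequences are the RefSeq mature forms on GRCm38.p6, 5′ to 3′, with the seed in capitals.
miR-21a-5p: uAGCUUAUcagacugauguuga
miR-21a-3p: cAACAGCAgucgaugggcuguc
miR-21b: uAGUUUAUcagacugauauuucc
miR-21c: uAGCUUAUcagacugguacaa

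miR-21a-5p lies at chr11:86584120-86584141 and miR-21a-3p at chr11:86584082-86584103, both on the minus strand of GRCm38. In GENCODE M21 their hairpin (86584067 to 86584158) lies within exon 12 of Vmp1-201, the protein-coding transcript of the autophagy gene Vmp1, in its 3′ UTR and on the same strand. In a minimum-energy fold of the 92-base hairpin, 19 of the 22 bases of miR-21a-5p paired with miR-21a-3p. The 5p strand begins with U, in a wobble pair with G, and the 3p strand with C, paired with G. Counting from the 5′ end, miR-21c shares the first 15 bases and the seed of miR-21a-5p and differs at A16G, G18A, U19C, U20A and G21A. miR-21b has another seed, through C4U, and also differs at G18A, G21U and A22C. miR-21b and miR-21c both had 0 counts in each of the 5 libraries. Among the 1675 rows with a RefSeq mature sequence, miR-21c was the 1 other row with the seed of miR-21a-5p, and 0 others had that of miR-21a-3p.

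Library totals ranged from 131507 to 2914305 counts. Freeze-dried replicates 1 and 2 and not freeze-dried replicate 1 had more than 500000 counts and are called deep, and freeze-dried replicate 3 (192450 counts) and not freeze-dried replicate 2 (131507 counts) are called shallow. Of 9 miRNAs typical of mesenchymal cells, led by miR-143-3p and miR-125b-5p, 9 had counts. They took 8.03% to 13.3% of the counts in freeze-dried libraries and 12.9% to 14.7% in those not freeze-dried. Lists of other cell types each took under 1% in every library. The neural list took 0.309% to 0.620% in freeze-dried and 0.306% to 0.508% in not freeze-dried libraries. The muscle list took 0.322% to 0.469% and 0.325% to 0.419%, so both lay above the blood and epithelial lists. The blood list, with miR-486a-5p ahead of miR-486b-5p, took 0.0922% to 0.179% in freeze-dried and 0.104% to 0.132% in not freeze-dried libraries, with both strands of the leukocyte hairpin miR-142a at 0. The epithelial list, led by miR-203-3p, had counts for 5 of its 8 members, with miR-200c-3p, miR-141-3p and miR-429-3p at 0. It took 0.0203% to 0.0435% in freeze-dried and 0.0707% to 0.0753% in not freeze-dried libraries, which did not overlap. Among the 327 miRNAs tested between the groups, 9.79% likewise had shares of counts that were lower in every freeze-dried library. Of the 8 epithelial members 2 were tested, miR-203-3p and the scarce miR-375-3p.

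miR-21a-5p was among the 5 most abundant miRNAs of every library. It had 194521, 99603 and 14030 counts in freeze-dried replicates 1, 2 and 3, and 66872 and 11439 counts in not freeze-dried replicates 1 and 2. These counts placed it 3rd, 5th and 4th in the freeze-dried libraries and 2nd and 3rd in those not freeze-dried. As shares of all counts they were 6.67%, 4.03% and 7.29% in freeze-dried EVs, and 7.33% and 8.70% in EVs not freeze-dried. By exact binomial 95% intervals, counting error was widest in not freeze-dried replicate 2, at 8.55% to 8.85%, which was narrow beside the range over libraries of 4.03% to 8.70%. The labels name no molecular identifiers, so reads are not taken as independent molecules, and all such intervals and floors cover counting error only.

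After TMM normalisation, which scales each library so that most miRNAs balance, miR-21a-5p stood at 70787, 38694 and 79886 CPM, counts scaled by library size, in freeze-dried replicates 1, 2 and 3. In not freeze-dried replicates 1 and 2 it stood at 65630 and 87687 CPM. Freeze-dried replicate 2 was the lowest library and not freeze-dried replicate 2 the highest, and the groups overlapped. Mature miRNAs differ little in length, so their CPM values are compared here without a length term. Any bias of library preparation between sequences was not corrected for, so ranks and strand ratios describe reads.

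miR-21a-3p was scarce. It had 36, 219 and 0 counts in freeze-dried replicates 1, 2 and 3, and 49 and 11 counts in not freeze-dried replicates 1 and 2. In normalised values these were 13.1, 85.1 and 0 CPM in freeze-dried EVs, and 48.1 and 84.3 CPM in EVs not freeze-dried. The 0 of freeze-dried replicate 3 allows up to 17.1 CPM at 3 counts, a limit that lies above the level of freeze-dried replicate 1. Which library was highest was not resolved either: as shares of all counts, freeze-dried replicate 2 had an exact binomial 95% interval of 0.00772% to 0.0101% and not freeze-dried replicate 2 one of 0.00418% to 0.0150%. The groups overlapped. Where it was detected the strand ranked between 196th of 320 and 312th of 361 miRNAs with a count.

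**Figure D1:**
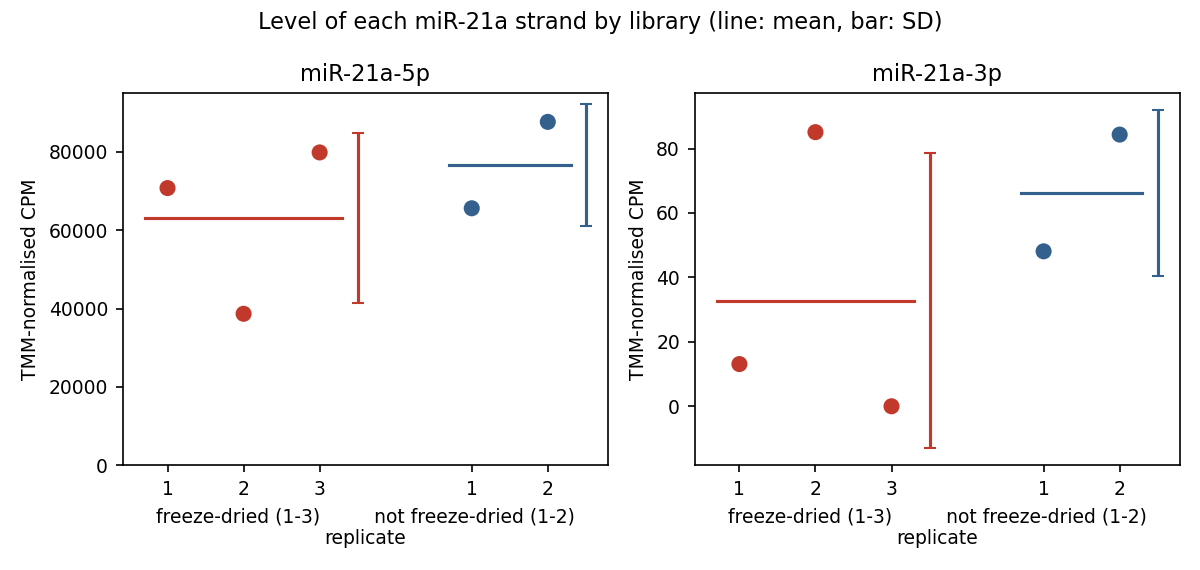
TMM-normalised CPM of miR-21a-5p (left) and miR-21a-3p (right) on linear axes, with 1 point per library, a line at the group mean and a bar of 1 SD (freeze-dried n = 3, not freeze-dried n = 2). For both strands the points of the groups overlap: miR-21a-5p spans 38694 to 79886 CPM in freeze-dried EVs and 65630 to 87687 CPM in EVs not freeze-dried.

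Setting freeze-dried against not freeze-dried EVs addresses whether drying and rehydration alter the relative miRNA content of the vesicles. CPM values and shares do not show a change in the total amount of miRNA. miR-21a-5p averaged 63122 ± 21639 CPM in freeze-dried EVs (SD, n = 3) and 76658 ± 15597 CPM in EVs not freeze-dried (SD, n = 2). The edgeR log2 fold change of freeze-dried over not freeze-dried was -0.28 (SE 0.33, 95% interval -1.02 to 0.46), a fold of 0.823 with an interval of 0.494 to 1.37 (edgeR quasi-likelihood test, adjusted p = 0.98 over 327 miRNAs). It did not pass the test, and the interval holds folds on both sides of no change. A lower CPM can be fewer vesicles that carry the miRNA or fewer copies in each. It can also be a larger part of the counts taken by other miRNAs. These counts cannot tell such cases apart. No miRNA was called: edgeR had 0 of 327 higher and 0 lower (0% each), with 9 (2.75%) at an unadjusted p under 0.05, while DESeq2 and limma-voom called 0 and had 16 each (4.89%) at that level.

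The size of the miR-21a-5p difference rested on single libraries. With freeze-dried replicate 2 left out, the log2 fold change was -0.03, and with not freeze-dried replicate 2 left out, it was -0.11. Leaving out freeze-dried replicate 3 gave -0.42, and leaving out not freeze-dried replicate 1 gave -0.41. Depth moved with the level. The shallow libraries, at 79886 and 87687 CPM, lay above the deep ones, at 70787, 38694 and 65630 CPM. Within the shallow libraries miR-21a-5p stood at 79886 CPM in freeze-dried and 87687 CPM in not freeze-dried EVs. Within the deep ones it stood at 70787 and 38694 CPM in freeze-dried and 65630 CPM in not freeze-dried EVs. With depth class as a term in the fit the log2 fold change was -0.21 (edgeR adjusted p = 0.98).

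As a raw share of counts miR-21a-5p was lower in each freeze-dried library than in each of the others, with 5.997% ± 1.73 (SD, n = 3) in freeze-dried and 8.02% ± 0.966 (SD, n = 2) in not freeze-dried EVs. The exact two-sided permutation p was 0.20, the smallest that 3 libraries against 2 can give. The highest freeze-dried share, 7.29%, lay just below the lowest of the other group, 7.33%, and their 95% intervals (7.17% to 7.41% and 7.28% to 7.39%) overlapped. Raw shares of 9.79% of the 327 tested miRNAs were likewise lower in every freeze-dried library, and those of 6.73% higher. A share also depends on how much of the total other miRNAs take. The let-7 family with miR-98 took 40.0%, 33.5% and 39.1% of the counts in freeze-dried libraries and 28.8% and 27.5% in those not freeze-dried. With these rows left out, miR-21a-5p took 11.1%, 6.06% and 12.0% of the remaining counts in freeze-dried EVs, and 10.3% and 12.0% in EVs not freeze-dried. The groups then overlapped, with p = 0.80 in the same exact permutation test. The gap before had been 7.29% against 7.33%, so a small shift is enough for overlap. The part of let-7 in the lower share was not tested. The epithelial list, also lower in freeze-dried libraries, was under 0.1% of counts throughout, and its part in the result was not tested.

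miR-21a-3p averaged 32.7 ± 45.8 CPM in freeze-dried EVs (SD, n = 3) and 66.2 ± 25.6 CPM in EVs not freeze-dried (SD, n = 2). Its edgeR log2 fold change, at -0.98 with an SE of 2.29 and a 95% interval of -6.11 to 4.15, did not pass the test (adjusted p = 0.98 over 327 miRNAs). The interval spans folds of 0.0145 to 17.8, and so covers a large change of either sign. The 2 deepest libraries, both freeze-dried, had 36 and 219 counts, so the spread between libraries was wide at high depth too. The value was -3.08 with freeze-dried replicate 2 left out and -0.34 with freeze-dried replicate 3 left out. Leaving out freeze-dried replicate 1 gave -0.57 and leaving out not freeze-dried replicate 2 gave -0.54. It was -2.55 with depth class as a term and 0.02 in the 3 deep libraries alone.

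**Figure D2:**
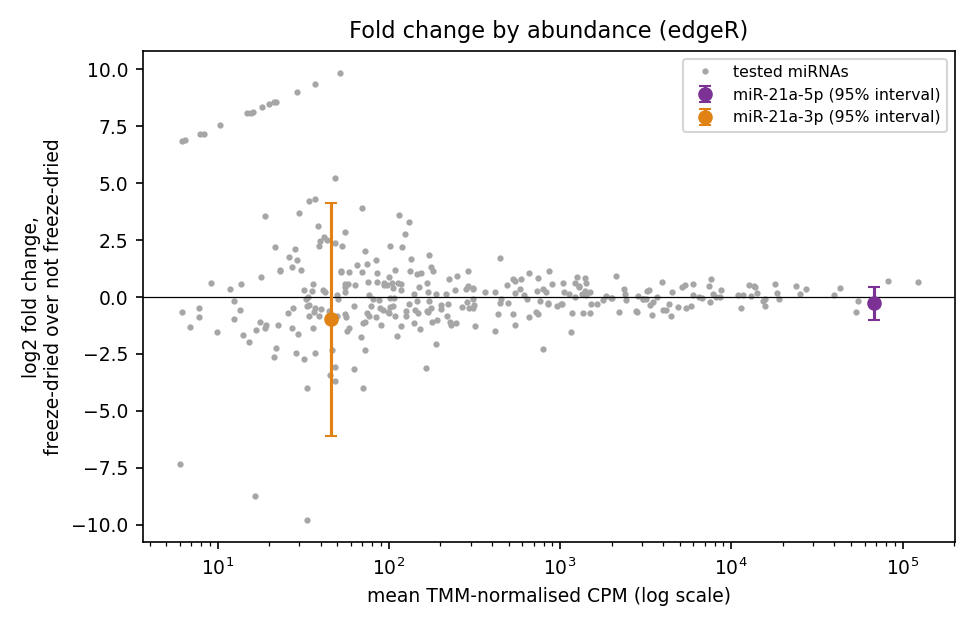
edgeR log2 fold change of freeze-dried over not freeze-dried EVs against mean TMM-normalised CPM on a log axis, for 327 tested miRNAs (grey), with the 95% intervals of miR-21a-5p (purple) and miR-21a-3p (orange). Both intervals include 0, and that of miR-21a-3p runs from -6.11 to 4.15.

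The balance of the strands was taken within the hairpin, where library size and normalisation cancel. Of the miR-21a counts, 0.0185%, 0.219% and 0% came from the 3p strand in freeze-dried replicates 1, 2 and 3, and 0.0732% and 0.0961% in not freeze-dried replicates 1 and 2. Each read of 3p thus stood against 5403 reads of 5p in freeze-dried replicate 1 and 455 in freeze-dried replicate 2, and against 1365 and 1040 in EVs not freeze-dried. In freeze-dried replicate 3, with 0 reads of 3p, a floor of 3 counts in place of the 0 would give 4677 reads of 5p for each of 3p.

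The strand balance differed more among the freeze-dried libraries than between the groups. The exact binomial 95% interval of freeze-dried replicate 1, 0.0130% to 0.0256%, lay apart from that of freeze-dried replicate 2, 0.191% to 0.250%. Both not freeze-dried intervals, 0.0542% to 0.0968% and 0.0480% to 0.172%, lay between them. The 0 of 14030 reads in freeze-dried replicate 3 had an exact binomial 95% interval of 0% to 0.0263%. Group means were 0.0793% ± 0.1217 in freeze-dried EVs (SD, n = 3) and 0.0846% ± 0.0162 in EVs not freeze-dried (SD, n = 2; p = 1 in an exact permutation test, two-sided). With counts pooled, 3p gave 255 of 308409 miR-21a reads in freeze-dried EVs and 60 of 78371 in EVs not freeze-dried, or 0.0827% and 0.0766%.

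Across the 71 hairpins with both strands tested, a fit asked whether 3p and 5p moved differently. For miR-21a the difference, 3p minus 5p, was -0.70 in log2 fold change (edgeR diffSpliceDGE, adjusted p = 0.91). An SE of 1.69 and a 95% interval of -4.49 to 3.09 were derived from the hairpin-level F of that test. This SE lies below the 2.29 of miR-21a-3p alone, so the interval is likely too narrow. The fit called 0 of the 71 hairpins (0%), with 6 (8.45%) at an unadjusted p under 0.05, and the median difference over hairpins was 0.01. The difference for miR-21a was -3.05 with freeze-dried replicate 2 left out and 0.08 with freeze-dried replicate 3 left out. Leaving out freeze-dried replicate 1 gave -0.21 and leaving out not freeze-dried replicate 2 gave -0.43. It was -1.81 when limma was run on the log2 ratios with 0.5 added to each count. The ratio of freeze-dried replicate 3, with 0 reads of 3p, then depends on the 0.5. The difference was -2.34 with depth class as a term and 0.31 in the deep libraries.

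Among 62 hairpins with at least 100 counts over both strands in every library, miR-21a stood near the middle by the observed share of the smaller strand. This set leaves out hairpins whose passenger strands are named by copy, such as let-7c. In 32 of the 62 the 5p strand was the larger and in 30 the 3p strand. The median share of the smaller strand was below that of miR-21a (0.0732%) in 28 hairpins, 25 of them at 0, and above it in 33. Depth limits this order. The median total was 66921 counts for miR-21a, against 25615 for miR-30d and 263 for miR-155, both with a median of 0%. In a hairpin with as few counts as miR-155, a median of 0% does not show a more one-sided balance than that of miR-21a. By share from the 3p strand the next hairpin below miR-21a was let-7g, with a median of 0.0276% and a range of 0% to 0.0735%, followed by 17 hairpins with a median of 0%. The next above were let-7e, at 0.561% (0.0725% to 0.836%), and miR-191, at 0.568% (0.255% to 2.26%). Over the 5 libraries miR-21a ranged from 0% to 0.219%, which overlapped with the range of let-7e and lay below that of miR-191. Among other hairpins with abundant guides, chosen after their values were seen, the passenger strand took 0.0348% for miR-143, a miRNA of smooth muscle and fibroblasts, 0.602% for let-7b and 0% for miR-30d.

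In the other 5p-dominant hairpins the 3p strand varied between libraries in other ways. Over 31 of these, pooled, 3p strands took 3.72%, 5.19% and 4.95% of the counts in freeze-dried replicates 1, 2 and 3, and 3.77% and 4.41% in not freeze-dried replicates 1 and 2. Freeze-dried replicate 2 was the highest in these pooled counts, in which let-7d, at 49.1% from 3p in that library, weighs heavily. The median over the 31 hairpins was 0% in each freeze-dried library, and 0% and 0.0735% in not freeze-dried replicates 1 and 2. Single hairpins had their highest 3p share in different libraries, such as miR-191 in freeze-dried replicate 1, at 2.26%, and miR-125a in not freeze-dried replicate 2, at 15.1%, examples chosen after their values were seen.

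**Figure D3:**
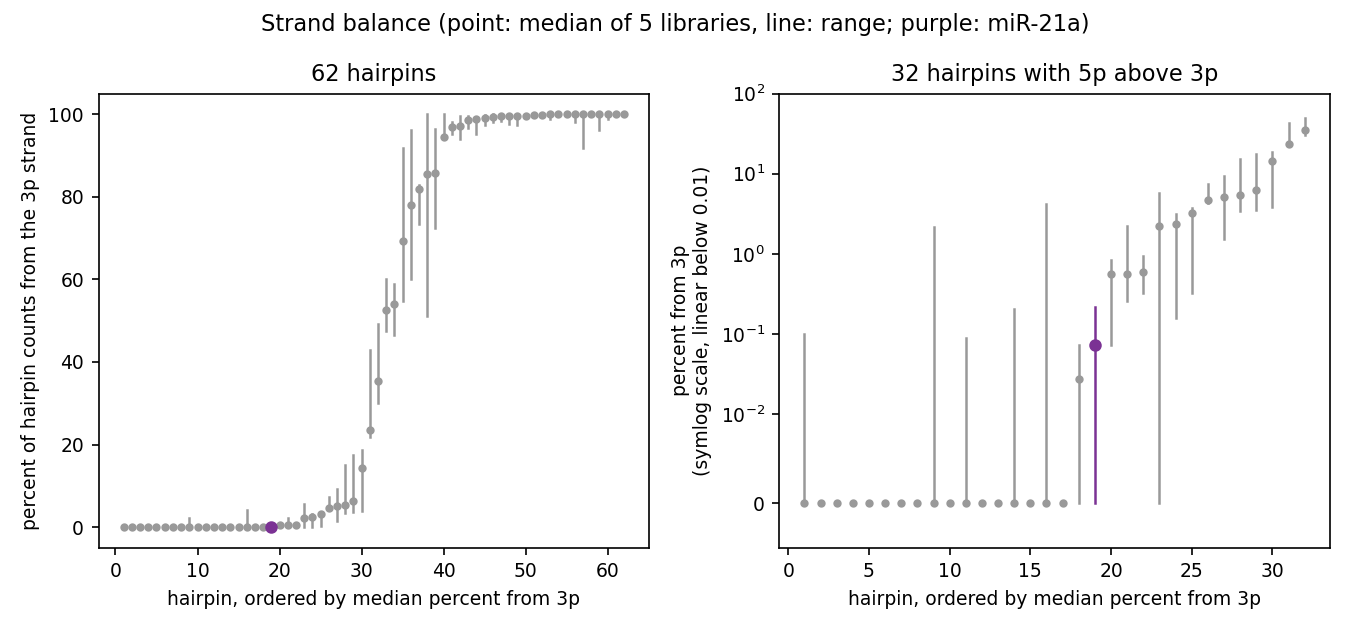
Percent of a hairpin's counts from its 3p strand, for 62 hairpins on a linear axis (left) and for the 32 with more 5p than 3p on a symmetric log axis that is linear below 0.01 (right). Points are medians and lines ranges over the 5 libraries, and miR-21a (purple) has a median of 0.0732% and a range of 0% to 0.219%.

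Over the 5 libraries miR-21a-5p ranked 3rd by mean CPM, after let-7c-5p and let-7b-5p and before miR-92a-3p and miR-143-3p. It lay below let-7c-5p, the most abundant miRNA of this cargo, in 5 of 5 libraries, with a mean log2 ratio of -0.85 ± 0.62 (SD, n = 5). Against let-7b-5p the order turned with the group: miR-21a-5p was lower in all 3 freeze-dried libraries and higher in both others, and the log2 ratio of -0.27 ± 0.65 (SD, n = 5) was within its spread. The CPM of let-7b-5p itself did not overlap between the groups, as for 57 of the 327 tested miRNAs (17.4%). The same held for let-7c-5p, also higher in freeze-dried EVs, and for miR-143-3p, which was lower, but not for miR-92a-3p. miR-21a-5p was above miR-92a-3p, of the miR-17~92 cluster, in 3 of 5 libraries (log2 ratio 0.52 ± 0.82, SD, n = 5). It was above miR-143-3p in 4 of 5 (0.35 ± 0.57, SD, n = 5). Only the mean ratio to let-7c-5p was larger than its SD, and these SDs pool both groups. In freeze-dried replicates 1, 2 and 3 let-7c-5p stood at 152990, 124269 and 155940 CPM. In not freeze-dried replicates 1 and 2 it stood at 89157 and 91918 CPM, the second close to the 87687 CPM of miR-21a-5p in that library. The distance from the 1st place thus varied with the library.

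miR-21a-3p ranked 247th by mean CPM. Its neighbours miR-340-5p, miR-409-3p, miR-467d-5p and miR-669p-5p had means of 44.5 to 48.2 CPM. The order at this level was not resolved, since the log2 ratios to these 4 miRNAs had SDs of 1.62 to 3.82 over the 5 libraries, each larger than its mean.

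**Figure D4:**
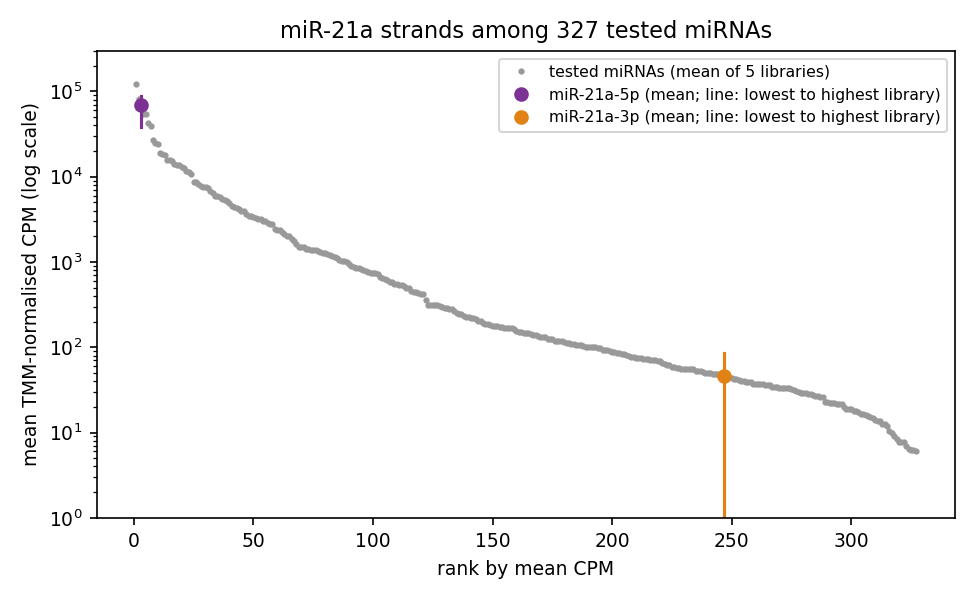
Mean TMM-normalised CPM on a log axis against rank, for 327 tested miRNAs, with miR-21a-5p at rank 3 (purple) and miR-21a-3p at rank 247 (orange). Coloured lines run from the lowest to the highest library; that of miR-21a-3p reaches a library at 0, which the log axis cannot show.

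The spread of miR-21a-5p over the libraries was near that of other abundant miRNAs. The SD of its log2 CPM over the 5 libraries was 0.46, against a median of 0.39 for the 89 miRNAs that averaged 1000 CPM or more, of which 32 varied more and 56 less. Within groups the SD was 0.56 in freeze-dried (n = 3) and 0.30 in not freeze-dried EVs (n = 2).

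Likeness of pattern was measured as the root-mean-square (RMS) difference between profiles of log2 CPM (prior count of 2), each centred on its own mean over the 5 libraries. The 3 tested miRNAs nearest to miR-21a-5p were let-7i-5p (RMS difference 0.20), miR-28a-5p (0.25) and miR-222-3p (0.26), the last a repressor of the cell cycle inhibitor p27. Like miR-21a-5p, these 3 had their lowest value in freeze-dried replicate 2 and their highest in not freeze-dried replicate 2. Nearest to miR-21a-3p were miR-210-3p (RMS difference 0.91), the main hypoxia-induced miRNA, miR-18a-5p (1.02), of the miR-17~92 cluster, and miR-466p-3p (1.08). miR-210-3p had 120, 848 and 2 counts in freeze-dried replicates 1, 2 and 3, and 86 and 16 counts in not freeze-dried replicates 1 and 2. For miR-18a-5p the counts were 2, 224 and 0 in the freeze-dried libraries, against 27 and 9 in the others. The profiles share libraries, depth and normalisation, and these were picked as the nearest of all those tested, so the distances are a description with no test.

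**Figure D5:**
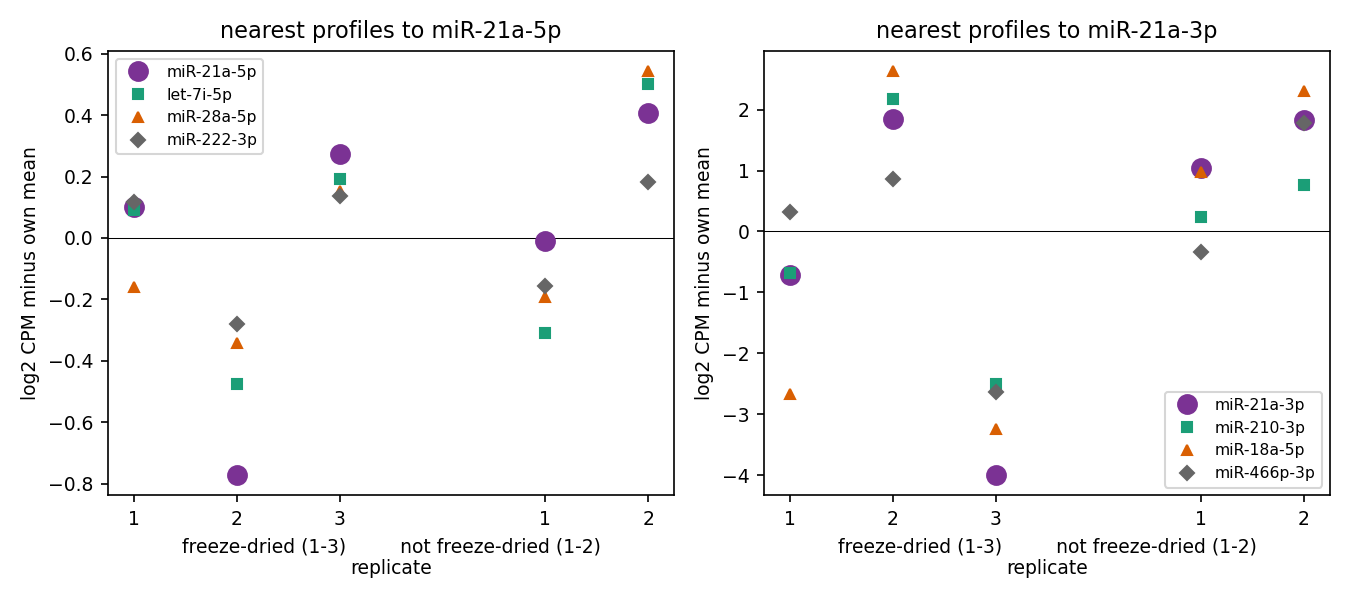
Log2 CPM of each library minus the miRNA's own mean over 5 libraries, for miR-21a-5p (left) and miR-21a-3p (right), both as large purple circles, with the 3 nearest profiles of each. The left panel runs from -0.77 to 0.54, with its lowest points in freeze-dried replicate 2; the right panel is led by the low points of freeze-dried replicate 3, at -4.00 for miR-21a-3p.

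miRNAs that share roles with miR-21a-5p were described with lists set by name. miR-21a-5p is itself a member of the fibrosis-promoting and MSC vesicle lists, so their counts, medians and shares include it. Beside the counts stand 167 of all 327 tested miRNAs whose log2 fold change was above 0 and 160 whose was below, and a median of 0.02. In each list 0 members were called higher and 0 lower, as in the whole table (0%).

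Of 8 miRNAs linked to promoting fibrosis, 7 were tested, with 3 above 0, 4 below and a median log2 fold change of -0.11. The list took 7.62%, 5.59% and 8.17% of the counts in freeze-dried libraries and 8.22% and 9.86% in those not freeze-dried, without overlap. Raw shares of single miRNAs were likewise lower in every freeze-dried library for 9.79% of the 327 tested. Most of the list was miR-21a-5p in every library. Its next members were miR-214-3p, at 9373 ± 3054 CPM in freeze-dried (SD, n = 3) and 7619 ± 1855 CPM (SD, n = 2) in not freeze-dried EVs, and miR-199a-5p, at 852 ± 532 and 1115 ± 168 CPM. Of 11 miRNAs linked to opposing fibrosis, 8 were tested, with 4 above and 4 below 0 and a median of -0.06. They took 4.29%, 3.38% and 3.63% of the counts in freeze-dried libraries and 3.94% and 3.19% in those not freeze-dried, which overlapped. They were led by let-7d-5p, at 14491 ± 4842 CPM in freeze-dried (SD, n = 3) and 10093 ± 1911 CPM (SD, n = 2) in not freeze-dried EVs, and by miR-26a-5p, at 11155 ± 2004 and 10458 ± 1174 CPM.

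Of 16 miRNAs reported in MSC vesicles, 15 were tested, with 6 above and 9 below 0 and a median of -0.07. The list took 17.9%, 15.9% and 16.6% of the counts in freeze-dried libraries and 21.4% and 19.4% in those not freeze-dried, again without overlap. After miR-21a-5p its most abundant members were miR-125b-5p and miR-23a-3p, the second at 19375 ± 5830 CPM in freeze-dried (SD, n = 3) and 17156 ± 2689 CPM (SD, n = 2) in not freeze-dried EVs.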

How the data were processed

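The authors deposited raw counts of reads for each mature miRNA in 5 small RNA libraries. Per the submitters' processing notes, the build was GRCm38 and the tools were Bowtie 1.1.2, featureCounts 1.5.0-p1, cutadapt 2.3, bcl2fastq 2.20 and FastQC, whose roles are unstated. Steps not given in the sources used here include the release of the miRNA annotation and how reads with several matches, strand and duplicates were handled, so reads shared by miR-21a and its near copies may have been split or lost.

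Groups follow the sample titles. All 327 miRNAs passing filterByExpr were fitted with edgeR 4.0.16 in R 4.3.3 (TMM, robust quasi-likelihood test). Adjusted p-values are Benjamini-Hochberg values with a threshold of 0.05. The SE is the log2 fold change over the square root of F. Strand balance was tested with diffSpliceDGE over hairpins, and values per library with exact two-sided permutation tests (smaller one-sided p doubled). Other tools were limma 3.58.1, DESeq2 1.42.0 and RNAfold 2.7.2. Functions were tested on simulated counts. A floor is 3 counts.

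Named miRNAs are both members, other miR-21 rows and those sharing a seed, neighbours in abundance and strand share, the 3 nearest profiles, and the 2 most abundant of each list. One list is not reported here. The members and lists were chosen with earlier results of these data known. Alternatives were other normalizations, tools and filters, thinning, leaving out let-7 and miR-98, each library left out in turn, the replicate number as a block, and depth class.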

Additional observations from a re-analysis of the deposited data

How the results depend on the processing

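The log2 fold change of miR-21a-5p kept its sign and stayed uncalled in all 17 alternatives, from -0.54 to -0.03 with adjusted p-values from 0.79 to 0.999 (the range is -0.42 to -0.03 without 1 library). That of miR-21a-3p was uncalled in all 16 that tested it, at -3.08 to -0.34 without 1 library, and turned to 0.0227 in the 3 deep libraries alone; it has no value under the filter of 10 counts in every library. The strand balance of miR-21a ranged from -3.05 to 0.0846 without 1 library and was 0.31 in the deep libraries. The difference in percent from 3p (freeze-dried minus not freeze-dried, -0.00535 points) ranged from -0.0754 to 0.0343 without 1 library and was 0.0457 in the deep libraries. Leaving out freeze-dried replicate 3 turned the sign of both, while leaving out freeze-dried replicate 1 (0.0251) or not freeze-dried replicate 2 (0.00608) turned that of the percent from 3p. The difference in raw share of miR-21a-5p, -2.02 points, was -1.03 without freeze-dried replicate 2 and -1.33 without not freeze-dried replicate 2. The count of 0 miRNAs higher held in all 17 alternatives; that of 0 lower became 4 with the replicate block and 1 in the deep libraries, where the cause was not tested, and neither miR-21a strand was among them. With the replicate block miR-21a-5p had a log2 fold change of -0.54 and miR-21a-3p one of -0.93. The replicate numbers shared by the groups form 2 pairs, whose deviations had correlations of 0.17 and -0.12, and the labels tie them to nothing shared, so no pairing was assumed. Fold changes of the 31 other named miRNAs were recomputed but are not printed: 10 kept their sign in every alternative and 0 were called. At the depth of the shallow libraries 3 counts are 17.1 and 23.0 CPM, which limits what can be said of miR-21a-3p.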
